A study of Mus musculus with 8 samples.

Results

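The C/EBP genes Cebpa, Cebpb, Cebpd, Cebpe, Cebpg and Cebpz and the GFI1 genes Gfi1 and Gfi1b were examined in RNA-seq profiles of cells sorted from mouse bone marrow. The genes were taken by symbol from a deposited expression table of 23846 entries, and each of the 8 symbols had 1 entry. The groups were wild-type mice and mice labelled TOX knockout, with 4 libraries each. TOX is a nuclear HMG-box protein that the series title links to progenitors of innate lymphoid cells (ILC). The labels state no strain, age, knockout allele or sort gate for either group, and they do not say that each library came from its own animal. The p-values therefore measure the spread between these libraries, part of which may be technical.

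C/EBP proteins are basic leucine zipper (bZIP) factors that bind DNA as homodimers and heterodimers and drive the differentiation of granulocytes and monocytes. GFI1 and GFI1B are paired zinc finger repressors that recruit the LSD1 and CoREST corepressor complex through an N-terminal SNAG domain. GFI1 acts in neutrophils and lymphocytes, including ILC2, and GFI1B in red cell and platelet precursors.

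Values are FPKM (fragment counts divided by transcript length and by the library's mapped fragments), so levels can be compared between genes per unit of length. Libraries are named by the number in their column name, 10, 16, 29 or 11, and values by library follow that order. Libraries 10 and 16 carry the barcodes 17 to 20, and libraries 29 and 11 the barcodes 40 to 43. These 2 sets of barcodes, called runs here, hold 2 libraries of each group. The split was made from the barcode numbers alone, and the labels do not say that the sets were sequenced apart. Wild-type libraries had a mean Tox level of 110 ± 13.8 FPKM (SD, n = 4), against 0.904 ± 1.02 (SD, n = 4) in the knockout, and no library went against its label. The column names also carry a code that the labels do not explain, C4 in the 4 wild-type columns, E3 in 3 knockout columns and E2 in knockout library 11, so code and genotype cannot be told apart. Knockout library 16 had 7328 genes with an FPKM of at least 1 and knockout library 29 had 9263, against 10115 to 10600 in the other 6 libraries. Relative to a wild-type library of the same run, the sequencing depth of knockout libraries 10, 16, 29 and 11 was 0.724, 1.44, 0.705 and 0.901.

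Marker genes showed which blood cells the libraries held. Ptprc, which encodes the pan-leukocyte antigen CD45, averaged 74.1 ± 12.7 FPKM (SD, n = 4) over the wild-type libraries and 60.3 ± 27.7 (SD, n = 4) over the knockout libraries. Cd34, a surface marker of blood stem and progenitor cells, had 14.6, 14.9, 8.54 and 10.7 FPKM in wild type and 62.1, 7.11, 26.5 and 79.5 in knockout, with knockout library 16 below every wild-type library. Its log2 fold change (knockout minus wild type of log2(FPKM + 1)) was 1.34 (limma adjusted p = 0.240), and it was called higher with median-ratio scaling (adjusted p = 0.0420) and without knockout libraries 16 and 29 (0.00220). Kit and Spn were examined beside Ptprc and Cd34 as blood cell identity genes. Kit went the other way from Cd34, with a log2 fold change of -0.39, and Spn had 0.31 (limma adjusted p = 0.583 and 0.633). With median-ratio scaling Kit had 0.19 and Spn 0.89 (limma adjusted p = 0.728 and 0.267). The 16 neutrophil granule genes examined held between 0.0184 and 0.592% of a library's summed FPKM in wild type. In knockout they held between 0.724 and 1.47%, and these shares did not overlap. Before division by that sum, the same genes totalled 63.3 to 2022 FPKM in wild type and 1729 to 7660 in knockout, which overlapped. The 1729 was in knockout library 16, whose summed FPKM over all entries was the smallest, at 208351. Taken singly, 2 of 10 secondary and tertiary granule genes and 0 of 6 primary ones were separated, against 1.09% of all tested genes. Globin genes held between 3.42 and 14.8% of summed FPKM in wild type and between 6.17 and 58.6% in knockout. Knockout library 29 was the highest, and the groups overlapped. For the 8 ILC and lymphoid progenitor genes the share was 0.615 to 0.965% in wild-type libraries, against 0.0217 to 0.171% in knockout. In such bulk samples, fewer cells of a type and less RNA per cell cannot be told apart. The part of these shares in the results on C/EBP and GFI1 genes was not tested.

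**Figure D1:**
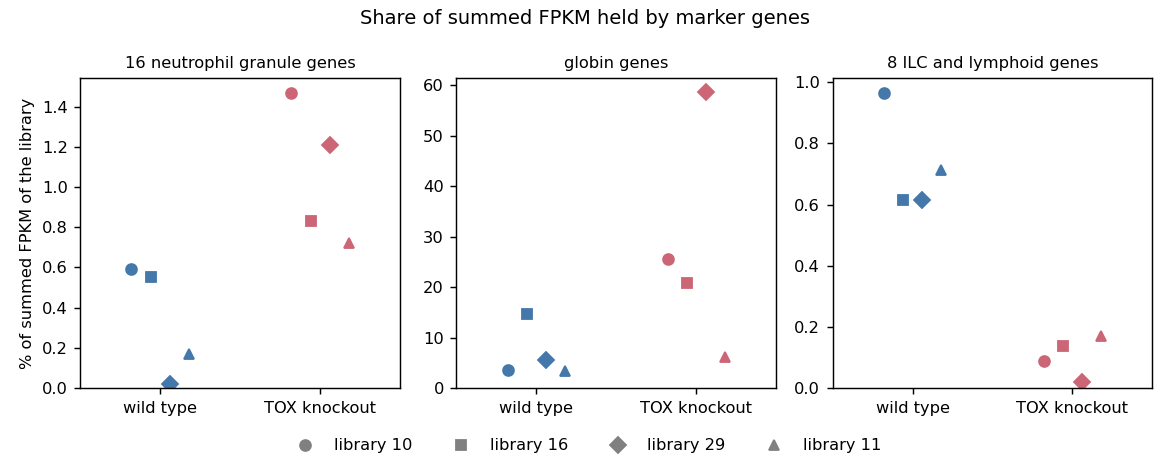
Share of each library's summed FPKM, in percent, held by 16 neutrophil granule genes, by globin genes and by 8 ILC and lymphoid progenitor genes. Each point is 1 library, its shape the library number. The granule shares of the knockout libraries (0.724 to 1.47%) lie above those of wild type (0.0184 to 0.592%). The granule genes' FPKM before division by the library's sum overlapped between the groups. The globin share is highest in knockout library 29 at 58.6%.

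In wild-type cells the 8 genes fell into tiers. Cebpz and Cebpg were highest, with means of 13.1 ± 2.80 and 12.7 ± 1.29 FPKM (SD, n = 4 each), and their ranges overlapped. Gfi1, at 7.11 ± 2.03, Gfi1b, at 6.14 ± 2.04, and Cebpb, at 4.28 ± 1.1, came next, and the lowest Cebpg library, at 11.7, was above the highest Gfi1 library, at 8.68. Neighbours within this middle tier overlapped. Cebpe, at 1.28 ± 1.33, and Cebpd, at 1.05 ± 0.591, overlapped with each other but lay below the lowest Cebpb library, at 3.41. Cebpa was the lowest, at 0.169 ± 0.104, and all of its wild-type libraries were below the lowest Cebpd library. In knockout cells Cebpd took the third place, and the ranges of all neighbours in the order overlapped.

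**Figure D2:**
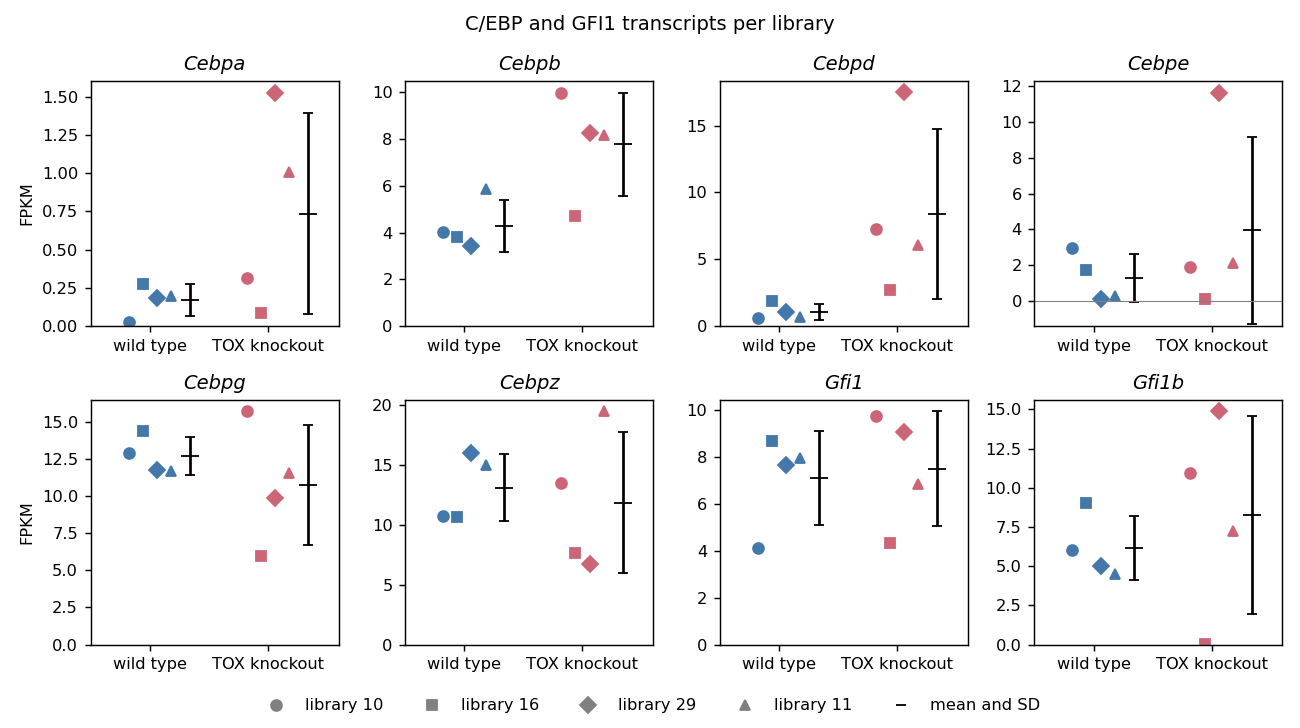
FPKM of the 8 genes in each of the 4 wild-type (blue) and 4 TOX knockout (red) libraries, with the mean and SD of each group in black and a separate linear axis per gene. The groups are separated for Cebpd, from 0.598 to 1.88 in wild type and from 2.71 to 17.5 in knockout, and overlap for the other 7 genes.

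Genes with a mean of at least 1 FPKM over the 8 libraries were tested with limma on log2(FPKM + 1), and 7 of the 8 passed this filter. Cebpa did not. At an adjusted p under 0.05, 0 of the 7 tested genes were called, while 0.196% of the 10693 genes tested in all were called higher and 1.72% lower. In simulated data this fit called 0% of log2 changes of 1 and 52% of changes of 2. At an unadjusted p under 0.05 there was 1, Cebpd, against 20.6% of all genes. Log2 fold changes are differences of mean log2(FPKM + 1), knockout minus wild type; the added 1 shrinks those of low genes. The median over all tested genes was -0.52 as deposited and -0.04 with median-ratio scaling between libraries. The median of the 7 genes was 0.06 as deposited and 0.59 with that scaling.

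**Figure D3:**
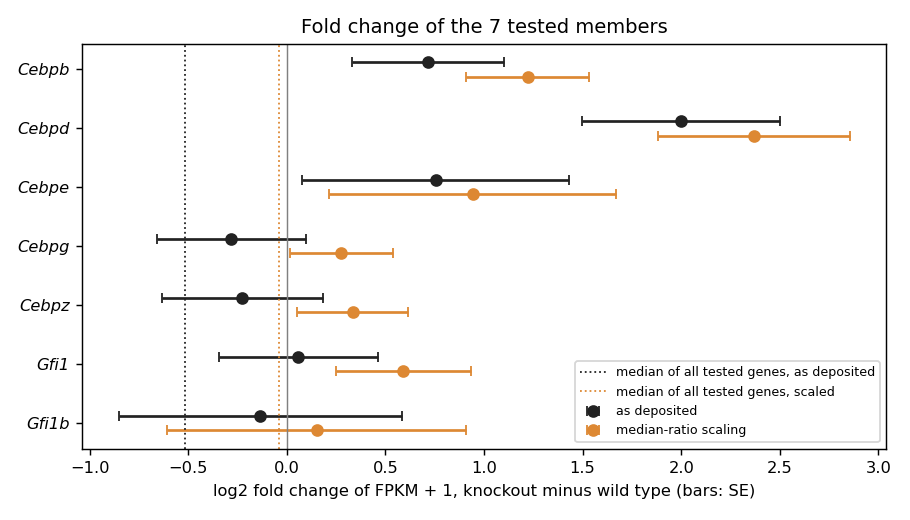
Log2 fold change of the 7 tested genes, knockout less wild type, in units of log2(FPKM + 1), with bars of 1 SE, as deposited (black) and with median-ratio scaling (orange); dotted lines mark the median of all tested genes under each. Cebpd is the highest at 2.00 and 2.37, and Cebpg, Cebpz and Gfi1b lie below 0 as deposited and above 0 with scaling.

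Cebpd, a C/EBP factor induced by inflammatory cytokines and by G-CSF during granulocyte maturation, showed the widest difference of the 7. It is an intronless gene on chromosome 16 (15887286 to 15889545, plus strand, mm10). The wild-type FPKM values of Cebpd were 0.598, 1.88, 1.04 and 0.664, and the knockout values were 7.30, 2.71, 17.5 and 6.03. All 4 knockout libraries lay above all 4 wild-type libraries, with library 29 the highest and library 16 the lowest in knockout and library 16 the highest in wild type. Of all tested genes, 1.09% were separated in this direction. The means were 1.05 ± 0.591 and 8.38 ± 6.37 FPKM (SD, n = 4 each). The log2 fold change was 2.00 (SE 0.50), 4.00-fold on the log2(FPKM + 1) scale, and did not pass over all genes (limma adjusted p = 0.0658).

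The call for Cebpd depended on the scaling, weights, filter, pseudocount and libraries used. It was made in 7 of 19 alternative settings. It was called higher with median-ratio scaling (log2 fold change 2.37, limma adjusted p = 0.0370), where 0.87% of all genes were called higher. With quantile normalization it was called too (2.50, limma adjusted p = 0.0173), beside 1.08% of all genes. The same was so when libraries were scaled to their sum without most globin genes (2.04, limma adjusted p = 0.0274), beside 0.524%. The globin gene Hbb-bs, listed under its older symbol Beta-s, stayed in that sum. It had 2342 to 12180 FPKM in wild type and 4728 to 90724 in knockout. Library weights gave a limma adjusted p of 0.00387, where 2.53% of all genes were called higher. Without knockout library 16 the log2 fold change was 2.37 (limma adjusted p = 0.0117, beside 1.16% of all genes), and without knockout libraries 16 and 29 it was 1.94 (adjusted p = 0.0347, beside 0.987%). In the first barcode run alone, 2 libraries against 2, it was 1.37 (limma adjusted p = 0.656, with 0% of all genes called higher), and in the second 2.63 (adjusted p = 0.130, with 0.324%). Cebpd was not called with a pseudocount of 0.1 (limma adjusted p = 0.108), with no filter (0.247) or with barcode run as covariate (0.0821). Nor was it called without wild-type library 10, 16, 29 or 11 (limma adjusted p = 0.207, 0.104, 0.183 and 0.210). The same held without knockout library 10, 29 or 11 (limma adjusted p = 0.115, 0.170 and 0.0505). Its value was positive under each of these settings.

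**Figure D4:**
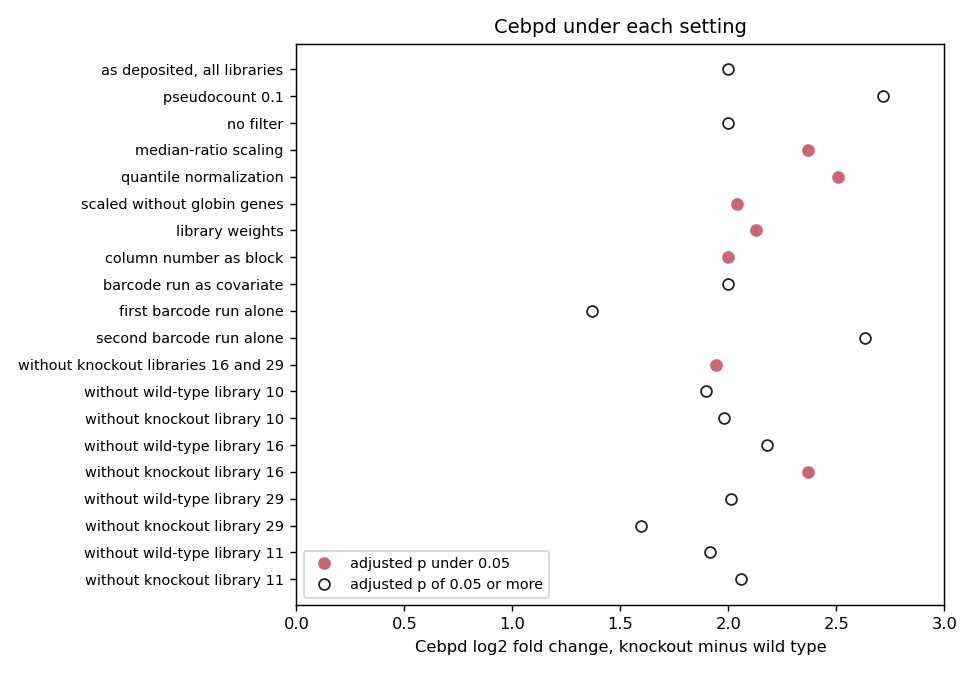
Log2 fold change of Cebpd, TOX knockout minus wild type, under each of 20 settings of the limma fit (rows). Filled points mark an adjusted p under 0.05. In the row scaled without globin genes, the globin gene Hbb-bs stayed in the sum. All values are positive, from 1.37 in the first barcode run alone to 2.72 with a pseudocount of 0.1.

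Cebpb, which acts in emergency granulopoiesis and in macrophages, is also intronless (chromosome 2, 167688915 to 167690418, plus strand, mm10). In wild type Cebpb measured 4.01, 3.81, 3.41 and 5.88 FPKM, and the knockout values were 9.97, 4.70, 8.25 and 8.19. In knockout, libraries 10, 29 and 11 were above every wild-type library, and library 16 fell inside the wild-type range. The means were 4.28 ± 1.1 and 7.78 ± 2.21 FPKM (SD, n = 4 each), with a log2 fold change of 0.72 (SE 0.39, limma adjusted p = 0.293). With median-ratio scaling it was 1.22 (SE 0.31, limma adjusted p = 0.0840) and also did not pass.

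Cebpa, which starts the granulocyte and monocyte programme in early progenitors, had the lowest mean of the 8 genes in both groups, at percentile 45.5 of the table's entries in wild type and 54.5 in knockout. It lies on chromosome 7 (35119293 to 35121931, plus strand, mm10). Cebpa had wild-type values of 0.0252, 0.274, 0.181 and 0.195 FPKM, and the knockout values were 0.313, 0.0878, 1.53 and 1.00. Knockout libraries 10, 29 and 11 were above all wild-type values, and knockout library 16 was within their range. The mean log2(FPKM + 1) was higher by 0.49 in knockout, with p = 0.171 in an exact two-sided permutation test of 4 libraries against 4, which cannot give a p below 0.0286. After correction for relative depth, the first-run values stood in the ratio of 1 read in wild-type library 10, 9 in wild-type library 16, 9 in knockout library 10 and 5 in knockout library 16, within 0.02 of whole numbers. These are the smallest read numbers the ratios allow, and any common multiple fits them too.

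Cebpe, a factor of late neutrophil precursors required for secondary granule genes, varied more between libraries than between groups. It lies on chromosome 14 (54710363 to 54712174, minus strand, mm10). For Cebpe the wild-type libraries gave 2.96, 1.72, 0.120 and 0.303 FPKM, and the knockout values were 1.88, 0.124, 11.7 and 2.12. Wild-type library 29 and knockout library 16 were about equally low, and knockout library 29 stood above the other 7. The means were 1.28 ± 1.33 and 3.94 ± 5.22 FPKM (SD, n = 4 each), with a log2 fold change of 0.76 (SE 0.68, limma adjusted p = 0.484). The value was -0.87 in the first barcode run alone and 2.38 in the second, and 0.12 without knockout library 29, none of which passed (limma adjusted p from 0.272 to 0.919 over its other settings). The smallest whole read numbers that the first-run values allow are 50 and 24 for wild type (libraries 10 and 16) against 23 and 3 for the knockout (same numbers).

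Cebpg, a short C/EBP protein without a transactivation domain that serves as a dimer partner, was steady in wild type and wider in knockout. It is on chromosome 7 (35046422 to 35056566, minus strand, mm10), 62726 bases from Cebpa, and no other entry of the table lies between them. Cebpg stood at 12.9, 14.4, 11.8 and 11.7 FPKM in wild type, and the knockout values were 15.7, 5.98, 9.85 and 11.6. The groups overlapped, with knockout library 10 the highest and knockout library 16 the lowest of the 8. As deposited its log2 fold change was -0.28 with an SE of 0.38 (limma adjusted p = 0.638), and it turned to 0.28 with median-ratio scaling (adjusted p = 0.590).

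The make-up of the C/EBP transcripts within a library does not depend on scaling between libraries. Of the summed FPKM of the 5 bZIP genes Cebpa, Cebpb, Cebpd, Cebpe and Cebpg, Cebpg held 63.0, 65.3, 71.3 and 62.4% in wild type. Its knockout shares were 44.7, 43.9, 20.2 and 40.1%. The groups did not overlap. Cebpd held 2.91, 8.52, 6.28 and 3.54% in wild type and 20.7, 19.9, 35.9 and 20.8% in knockout, again without overlap. The ratio of Cebpd to Cebpb ranged from 0.113 to 0.494 in wild type and from 0.577 to 2.12 in knockout. These shares combine genes described above, are given without a test, and compare unequal change within a library, not the change of any 1 gene.

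**Figure D5:**
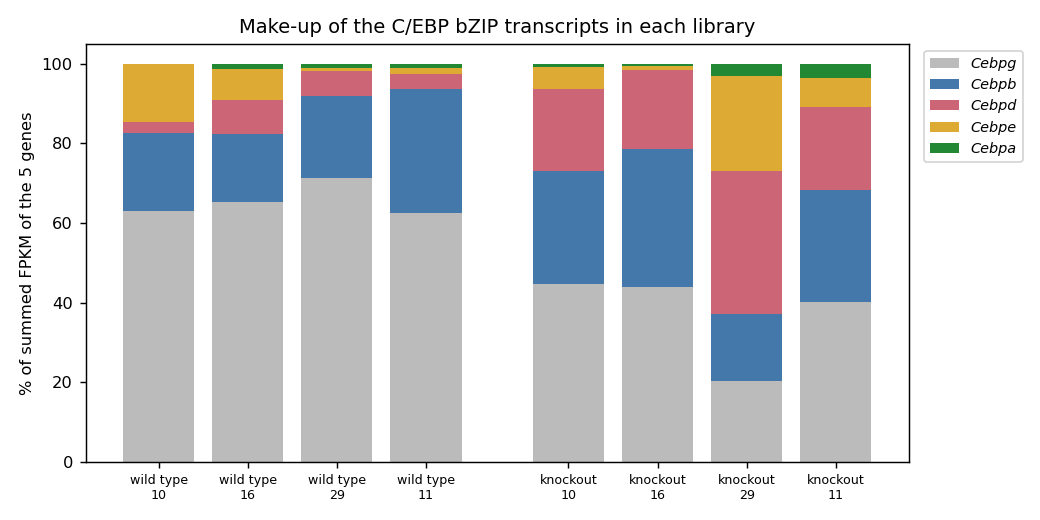
Share of the summed FPKM of 5 C/EBP bZIP genes held by each, in percent, stacked for each library. Cebpg (grey) holds 62.4 to 71.3% in the wild-type and 20.2 to 44.7% in the knockout libraries, and Cebpd (red) 2.91 to 8.52% and 19.9 to 35.9%.

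Cebpz carries the C/EBP name but is no bZIP protein. It encodes a nucleolar protein related to the yeast ribosome assembly factor Noc1 and lies on chromosome 17 (78919003 to 78937070, minus strand, mm10). Wild-type Cebpz values were 10.7, 10.6, 16 and 15.0 FPKM, and the knockout values were 13.5, 7.66, 6.70 and 19.5. The groups overlapped, with knockout libraries 16 and 29 the lowest and knockout library 11 the highest of the 8. As deposited its log2 fold change was -0.23 with an SE of 0.41 (limma adjusted p = 0.733), and it turned to 0.33 with median-ratio scaling (adjusted p = 0.537).

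Gfi1 (chromosome 5, 107716655 to 107725805, minus strand, mm10) had the smallest log2 fold change of the 7 as deposited. It measured 4.14, 8.68, 7.67 and 7.95 FPKM in wild type, and the knockout values were 9.77, 4.32, 9.08 and 6.85. The groups overlapped, with 1 low library in each. The means were 7.11 ± 2.03 and 7.51 ± 2.46 FPKM (SD, n = 4 each). As deposited its log2 fold change was 0.06 with an SE of 0.40 (limma adjusted p = 0.934), and with median-ratio scaling it was 0.59 (SE 0.34, adjusted p = 0.366). Both directions occurred when single libraries were left out, from -0.15 to 0.27.

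Gfi1b (chromosome 2, 28609450 to 28621982, minus strand, mm10) varied more between libraries in knockout than in wild type. The wild-type libraries had Gfi1b at 6.02, 9.06, 5.01 and 4.49 FPKM, and the knockout values were 10.9, 0.0281, 14.9 and 7.22. Knockout library 16 was nearly devoid of it, while its depth was the highest of its run; knockout libraries 10 and 29 were above all wild-type libraries. Its log2 fold change of -0.13 had an SE of 0.72 (limma adjusted p = 0.914) as deposited. Without knockout library 16 it turned to 0.74 (adjusted p = 0.282), and with median-ratio scaling to 0.15 (adjusted p = 0.929). In the first barcode run alone it was -1.26 and in the second 0.99. The ratio of Gfi1b to Gfi1 ran from 0.565 to 1.45 across wild type and from 1.05 to 1.64 over knockout libraries 10, 29 and 11, against 0.00652 in knockout library 16.

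GFI1 and GFI1B are known to repress their own and each other's genes, through sites with the core AATC. The 250 bases before their start sites are shown to place this core, for Gfi1 at 1 of 2 listed starts (RefSeq, GRCm38.p6, 5′ to 3′ on the minus strand, AATC and its reverse complement GATT in capitals).
Gfi1, chr5:107725806-107726055: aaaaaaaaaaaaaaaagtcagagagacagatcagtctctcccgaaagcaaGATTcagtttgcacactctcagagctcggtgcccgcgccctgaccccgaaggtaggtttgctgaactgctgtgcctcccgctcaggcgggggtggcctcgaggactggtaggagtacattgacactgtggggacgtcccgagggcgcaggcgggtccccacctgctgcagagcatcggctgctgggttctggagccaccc
Gfi1b, chr2:28621983-28622232: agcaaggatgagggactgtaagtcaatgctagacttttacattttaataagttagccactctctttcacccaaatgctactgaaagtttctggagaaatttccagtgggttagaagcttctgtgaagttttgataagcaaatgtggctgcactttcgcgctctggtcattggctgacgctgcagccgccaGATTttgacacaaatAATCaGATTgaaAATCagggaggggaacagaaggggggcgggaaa
The Gfi1b window held 4 matches, starting 60, 45, 40 and 33 bases before the start site. The window shown for Gfi1, at the more upstream of its 2 listed starts, held 1, starting 200 bases before it, and the window of the other Gfi1 start held 0. Of all 32851 promoter windows of this length, 69.0% held at least 1 match on either strand, so a match is a description of the letters only. The longer form AATCAC, which contains the core, was in 9.14% of windows and in neither of those shown.

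Of the 8 genes, 5 had an entry in the promoter table, which holds no entry used here for Cebpd, Cebpe and Cebpz. The C/EBP letters TTNNGNAA, searched on both strands, were in 36.8% of all windows, in 1 of the 2 Gfi1 windows, and not in those of Cebpa, Cebpb, Cebpg and Gfi1b. The Cebpb window is shown because it was the widest difference among the genes with an entry, and because its base composition was far from the median of 52.4% G and C over all windows.
Cebpb, chr2:167688665-167688914: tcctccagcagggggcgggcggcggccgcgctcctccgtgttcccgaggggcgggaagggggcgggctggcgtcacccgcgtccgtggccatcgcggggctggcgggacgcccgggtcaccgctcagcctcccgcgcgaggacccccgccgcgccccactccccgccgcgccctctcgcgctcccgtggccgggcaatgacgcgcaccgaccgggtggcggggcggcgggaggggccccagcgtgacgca
It had 81.6% G and C on the plus strand of GRCm38 and no match to AATC, TTNNGNAA or CCAAT.

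Partner genes of the bZIP factors did not pass the test. Of 7 tested genes among dimer partners, ATF factors and Tribbles regulators, 0 were called by limma, and 2 were lower and 0 higher at an unadjusted p under 0.05. These were Ddit3, which encodes the C/EBP family member CHOP, at 24.8 ± 6.59 and 11 ± 5.28 FPKM (SD, n = 4 each; log2 fold change -1.19, limma adjusted p = 0.169), and Batf, an AP-1 factor, at 30.6 ± 6.94 and 14.1 ± 5.17 (-1.11, adjusted p = 0.163). Both had groups that did not overlap, as did 11% of all tested genes in this direction. The median of the 7 was -0.30, and 0.23 with median-ratio scaling, against -0.52 and -0.04 for all tested genes.

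Corepressors of GFI1 were near the median of all genes. Of 8 tested, 0 were called and 1 was lower at an unadjusted p under 0.05, with a median of -0.60 against -0.52 for all tested genes. Hdac3, a histone deacetylase, was at 20.1 ± 3.97 and 10.2 ± 7.75 FPKM (SD, n = 4 each; log2 fold change -1.23, limma adjusted p = 0.226), and Ehmt2, the histone methyltransferase G9a, at 16.4 ± 4.63 and 10.6 ± 5.75 (-0.70, adjusted p = 0.340).

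Of 7 tested genes known as targets of GFI1 repression, 2 fell and 0 rose as deposited, beside 1.72% of all tested genes called lower and 0.196% higher. With median-ratio scaling 2 were lower and 1, Irf8, higher, beside 1.11% and 0.87%. Irf8, a factor of monocyte and dendritic cell fate named here after its values were seen, had a log2 fold change of 1.69 as deposited (limma adjusted p = 0.145) and 2.25 with that scaling (adjusted p = 0.0134). Id2, an inhibitor of E proteins, fell with a log2 fold change of -2.78 (SE 0.42, limma adjusted p = 0.00426), and Il7r, the interleukin 7 receptor, with -3.30 (SE 0.42, adjusted p = 0.00114). Both are also ILC markers, a list in which 7 of 8 tested genes fell, Rora, Zbtb16 and Gata3 with log2 fold changes of -5.43, -3.89 and -3.72 (limma adjusted p = 7.09e-05, 3.52e-04 and 0.00108). The count of 7 ranged from 1 to 7 over 20 alternative settings. The other gene of that list, Flt3, a cytokine receptor of early progenitors named after its values were seen, went the other way, from 1.53 ± 0.548 to 10.7 ± 6.65 FPKM (SD, n = 4 each) without overlap. Its log2 fold change was 2.00 and missed the threshold as deposited (limma adjusted p = 0.0726), and it passed with median-ratio scaling (0.00654) and without knockout libraries 16 and 29 (0.00323). The median of the GFI1 target list was -0.53, beside -0.52 for all tested genes.

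Genes downstream of and beside the C/EBP factors in granulocytes had positive values, mostly without passing. All 6 primary granule genes and all 10 secondary and tertiary granule genes were above 0 in log2 fold change (medians 3.27 and 2.42), and limma called 0 of both lists as deposited. Over 20 alternative settings the count called higher ranged from 0 to 5 in each list, and it was above 0 in 6 settings for the primary and in 9 for the secondary and tertiary genes. Elane, neutrophil elastase, was listed between 0 and 85.8 FPKM in wild type and between 10.8 and 667 in knockout (limma adjusted p = 0.113). Mpo, myeloperoxidase, ranged from 0.384 to 37.8 and from 5.92 to 234 (adjusted p = 0.145). Camp, a C/EBP epsilon target of the secondary granules, was at 296 ± 280 and 1703 ± 1040 FPKM (SD, n = 4 each, limma adjusted p = 0.0776). The collagenase gene Mmp8 had means of 9.28 ± 3.59 and 47.5 ± 32.4 (limma adjusted p = 0.0669), and neither gene overlapped between the groups. Elane and Camp were called in 5 of the 20 settings each, Mpo in 3 and Mmp8 in 7. With median-ratio scaling Mmp8 was the 1 of these 16 genes that passed (limma adjusted p = 0.0348).

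The receptors for myeloid cytokines were positive as well. All 8 tested had a positive log2 fold change, with a median of 1.03 against -0.52 for all tested genes. Csf2ra and Il3ra were close to no change, at 0.05 and 0.10. Limma called 0 as deposited and 0 to 4 over the alternative settings. Csf1r, the M-CSF receptor, had wild-type FPKM values of 0.134, 1.07, 0.00809 and 0.204 and knockout values of 3.51, 3.51, 2.84 and 2.01, without overlap (log2 fold change 1.59, SE 0.40, limma adjusted p = 0.0658). Cxcr2, a neutrophil chemokine receptor, was at 0.423 ± 0.386 and 4.70 ± 3.96 (SD, n = 4 each; 1.73, adjusted p = 0.133), also without overlap. Only these 2 of the 8 receptors were separated, beside 1.09% of all tested genes in this direction. Csf1r, Cxcr2, Csf2rb2 and Il6ra had wild-type means under 1 FPKM (0.354, 0.423, 0.478 and 0.910). They met the filter only through knockout values, so the filter itself favoured a positive value for them.

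Among other factors of myeloid fate, 6 of 8 tested had a positive log2 fold change as deposited, with a median of 1.33 against -0.52 for all tested genes. Myb and Myc were negative, at -0.48 and -0.36. Runx1 had 0.36 and Gata2 2.40 (limma adjusted p = 0.648 and 0.145). As deposited, 1 of the 8 was called higher, beside 0.196% of all tested genes. The count was 2 with median-ratio scaling and 2 without knockout libraries 16 and 29, with Irf8 called in both (limma adjusted p = 0.0134 and 0.00565), and it ranged from 0 to 3 and differed from 1 in 16 of 20 settings. Klf4, a zinc finger factor of monocyte differentiation, had wild-type FPKM values of 0.0432, 0.495, 0.223 and 2.83 and knockout values of 4.82, 4.82, 9.11 and 8.41, without overlap (log2 fold change 2.20, SE 0.48, limma adjusted p = 0.0376). With a wild-type mean of 0.898 FPKM, under 1, Klf4 met the filter only through its knockout values, so the filter itself favoured a positive value. It did not pass without knockout libraries 16 and 29 (limma adjusted p = 0.0869), nor without wild-type library 10, 16 or 29 (0.157, 0.104 and 0.151) or knockout library 10 or 29 (0.0564 and 0.124). The call was also lost with a pseudocount of 0.1 (limma adjusted p = 0.101), with no filter (0.183) and in either barcode run alone (0.652 and 0.284). Of 8 tested acute phase and stress genes, several of which C/EBP beta and delta are known to activate in liver, 1 was called higher. The count ranged from 0 to 3 and differed from 1 in 12 of 20 settings. As deposited, 6 of the 8 had a positive log2 fold change, while Il6 and Asns had -0.76 and -0.03. The called gene was Orm1, an acute phase glycoprotein, which rose from 0.587 ± 0.355 to 7.67 ± 3.20 FPKM (SD, n = 4 each, log2 fold change 2.37, SE 0.44, limma adjusted p = 0.0159). Its wild-type mean and that of Il1b, 0.981, were under 1 FPKM, so both met the filter only through knockout values. Orm1 missed the threshold without knockout libraries 16 and 29 (limma adjusted p = 0.0636), and without wild-type library 16, 29 or 11 (0.0596, 0.0619 and 0.073) or knockout library 29 (0.0599). The same held with no filter (limma adjusted p = 0.0954) and in either barcode run alone (0.648 and 0.306).

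Erythroid and megakaryocyte genes, the setting in which Gfi1b is known to act, included no called gene. Of 12 tested, 11 had a positive log2 fold change, with a median of 0.92 against -0.52 for all tested genes. Zfpm1 and Pf4 were close to no change, at 0.04 and 0.05, and Itga2b had -0.10. Tal1 and Epor, with wild-type means of 0.826 and 0.749 FPKM, met the filter only through knockout values. The anion exchanger gene Slc4a1 was at 7.06 ± 7.16 and 49.0 ± 52.0 FPKM (SD, n = 4 each, limma adjusted p = 0.156). Globin genes were listed at a median of 2.14 in log2 fold change, with 0 of 5 called. Knockout library 29 was the highest for both Slc4a1 and Gfi1b, while knockout library 16, at 20.4 FPKM of Slc4a1, had almost no Gfi1b.

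The genes whose profiles over the 8 libraries lay closest were found by the root mean square difference of log2(FPKM + 1) values, each centred on its own mean. For Cebpd these were Siglech, at a difference of 0.33, and Pygl, at 0.37, where the profile of Cebpd itself had an SD of 1.18. For Cebpb they were Tmem55b (0.19) and Dek (0.20), and for Cebpe Lrr1 (0.31) and Spic (0.37). For Gfi1b Mpp1 (0.30) is given, for Gfi1 Mrps18c (0.11) and Ppp2r5a (0.12), for Cebpg Btf3 (0.096) and Arpc5l (0.099), and for Cebpz Wtap (0.093) and Trim44 (0.12). Among the 7 genes themselves, Cebpg and Gfi1 were the closest pair (0.36) and Cebpd and Cebpz the farthest (1.40). The profiles of Cebpg and Gfi1 had SDs of 0.36 and 0.38, so their difference was about as large as the variation of either.

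Of 9 tested genes next to the 8 on the chromosome, 1 was called, beside 1.72% of all tested genes called lower. Slc7a8, an amino acid transporter gene 10040 bases from Cebpe, fell from 7.35 ± 2.17 to 0.477 ± 0.527 FPKM (SD, n = 4 each; log2 fold change -2.52, limma adjusted p = 0.00741). Pepd, a peptidase gene 1713 bases from Cebpg, was at 12.9 ± 1.43 and 5.54 ± 3.12 (-1.26, adjusted p = 0.179). Ndufaf7, 64 bases from Cebpz, had a log2 fold change of -0.61 (adjusted p = 0.447), and Tsc1 and Gtf3c5, on either side of Gfi1b, had -0.68 and -0.56 (adjusted p = 0.364 and 0.578).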

How the data were processed

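Total RNA of 8 samples was turned into cDNA with a low-input SMARTer kit and sequenced on an Ion Proton, per the labels' protocols. The deposited FPKM values were made by the authors with Cufflinks on mm10, per the submitters' processing notes; which aligner and annotation they used is not given in the sources used here. Columns were assigned to their group by name, since their numbers are not those of the titles. The table holds no read counts, so absolute depth is unknown; relative depth came from steps between low values within a barcode run.

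Values were used as log2(FPKM + 1). Entries with a mean FPKM of at least 1 (10693) were tested with limma 3.58.1 in R 4.3.3, using its trended prior variance and adjusting p-values by Benjamini-Hochberg. The fit was tested on simulated data, with 50 genes each changed by 1, 2, 3 or 4 in log2. It called 0, 52, 80 and 86% of them, with 4 false calls. A gene that did not pass is therefore not shown to be unchanged. The filter was applied anew to the libraries of each fit. No 2 libraries were identical. The members and 12 gene lists were chosen with earlier results of these data known. From each list, up to 3 called genes of largest change were named or, with none called, the 2 of smallest p. Some genes that these rules took are not reported here. Spi1 and Hbb-bs were matched by older symbols, except that the scaling without globin genes did not match Hbb-bs and so kept it in the sum. Table starts were read as counted from 0.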

Additional observations from a re-analysis of the deposited data

How the results depend on the processing

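The count of called members was 0 as deposited. It was 1, Cebpd, with median-ratio scaling, quantile normalization, scaling without most globin genes, library weights and without knockout libraries 16 and 29. The count was also 1 with the column number as a replicate block (limma adjusted p = 0.0444, where 0.72% of all genes were called higher). Leaving out 1 library at a time gave 0 to 1, the 1 without knockout library 16. All genes called numbered 205, against 106 with a pseudocount of 0.1, 74 with no filter, 116 with a mean FPKM of at least 5, 328 scaled without globin genes, 728 with library weights, 344 with the replicate block, 5 and 95 in the first and second barcode runs alone, and 82 (without wild-type library 11) to 654 (without knockout library 11) with 1 library left out. Deviations from the group means correlated between same-numbered libraries at r = 0.039, 0.0062, -0.021 and 0.26 for 10, 16, 29 and 11. The value for 11 was the highest of any wild-type and knockout pair. Not every library correlated best with its own number. With median-ratio scaling, quantile normalization, library weights and without knockout libraries 16 and 29, in that order, Cebpg turned to 0.28, 0.18, 0.073 and 0.087, Cebpz to 0.33, 0.25, 0.039 and 0.31, and Gfi1b to 0.15, 0.28, 0.59 and 0.51; the cause was not tested. Gfi1b was 0.99 in the second run, and -0.58 to 0.74 with 1 library left out. Cebpe was -0.87 in the first run, and Gfi1 -0.15 to 0.27 with 1 library left out. Ptprc turned to 0.19 with median-ratio scaling and 0.18 without knockout libraries 16 and 29. FPKM alone does not give the counting error of low genes such as Cebpa.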
